A study of Arabidopsis thaliana with 9 samples.

Results

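The ascorbate-deficient Arabidopsis thaliana mutant vtc2-1 was set directly against vtc1-1, a mutant with a lesion at another step of the same route. The comparison used 6 of the 9 arrays of the series, 3 of vtc2-1 and 3 of vtc1-1, taken by the genotype in the labels, and no wild-type array. Both groups were whole seedlings grown for 14 days on minimal nutrient agar, to the stage with 4 small rosette leaves. The labels give vtc2-1 as EMS-induced in the Col-0 background and vtc1-1 as a stock carrying the vtc1-1 mutation. They do not say whether the replicates came from separate sowings, so the p-values speak only for the spread among these samples, which may be technical. Each sample of total RNA was hybridised to its own 1-colour Affymetrix ATH1 array, and each value below is a linear signal intensity of a probe set unless a log2 difference is named. A log2 difference is vtc2-1 minus vtc1-1. Testing was limited to probe sets whose signal exceeded the 40th percentile of the array in 3 or more of these 6 arrays, which kept 13926 of 22810. Each group is 1 mutant line, so that any other change a line carries cannot be told apart from its named lesion.

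As background, plants make most of their ascorbate from GDP-mannose. VTC1 encodes GDP-mannose pyrophosphorylase, which makes this sugar nucleotide, and GDP-mannose is also used for protein glycosylation, membrane anchors and cell wall polymers. GME then turns GDP-mannose into GDP-L-galactose, and VTC2 encodes GDP-L-galactose phosphorylase, the first step that serves ascorbate alone. The annotation used here pairs no probe set with VTC1 or VTC2, so no signal could be assigned to the mutated genes. The labels were therefore not checked against these transcripts, although probe sets that the annotation does not list, 8794 of 22810, may measure them. Among the unlisted is a probe set, described below, that falls by its number between the probe sets of genes on either side of VTC2. Its signal was 195.4 to 242.8 in vtc2-1 and 912.7 to 1302 in vtc1-1, so that it divided the arrays as labelled. Whether it measures VTC2 was not tested.

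One array stood apart from its group. Over the tested probe sets (these are no independent replicates) vtc2-1 replicate 3 correlated at r = 0.925 and 0.929 with vtc2-1 replicates 1 and 2, and at 0.929 to 0.943 with the vtc1-1 arrays. Replicates 1 and 2 of vtc2-1 correlated at 0.951 with each other, and the vtc1-1 arrays at 0.938 to 0.953. On principal component 1, with 27.5% of the variance, the vtc2-1 arrays scored -26.4, -24.0 and 36.1, and the vtc1-1 arrays 1.44, 6.32 and 6.62. What sets this array apart was not tested. The labels give no reason to leave it out, so it was kept, and results are also given without it. Median signals were 44.3 to 45.2 in vtc2-1 and 43.6 to 43.9 in vtc1-1, which did not overlap (exact two-sided permutation p = 0.1). The 25S rRNA control gave 4542, 3595 and 4956 in vtc2-1 and 1990, 3250 and 4568 in vtc1-1 (exact permutation p = 0.3). Control transcripts probed at both ends had a 3' over 5' log2 ratio averaging 1.05, 1.18 and 0.94 in vtc2-1 and 1.27, 1.14 and 0.78 in vtc1-1 (exact permutation p = 1.0, where 0.1 is the smallest that 3 against 3 arrays allow). With median-centred arrays the number of calls was the same, and the part of the 25S rRNA signal in the results was not tested.

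A single probe set separated the lines past the threshold. The annotation used here does not list it, so it has no gene name and is called the unnamed probe set. By its number it falls between the probe sets of AT4G27300 and AT4G26640. The VTC2 locus, AT4G26850, lies between these genes by locus number. Whether probe set numbers follow gene order was not tested, nor whether the unnamed probe set measures VTC1 or VTC2. The plot of single signals gives its identifier above its panel. Its signal was 217.6, 195.4 and 242.8 in vtc2-1, against 1302, 1106 and 912.7 in vtc1-1. All 3 vtc2-1 arrays, replicate 3 among them, lay far below every vtc1-1 array. The probe set was 5.03-fold lower in vtc2-1, or -2.33 ± 0.16 on the log2 scale (SE, 3 arrays each; limma adjusted p = 0.000155). Without vtc2-1 replicate 3 the difference was -2.41, and the lowest vtc2-1 signal was 6.44 times the array's 40th percentile.

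**Figure D1:**
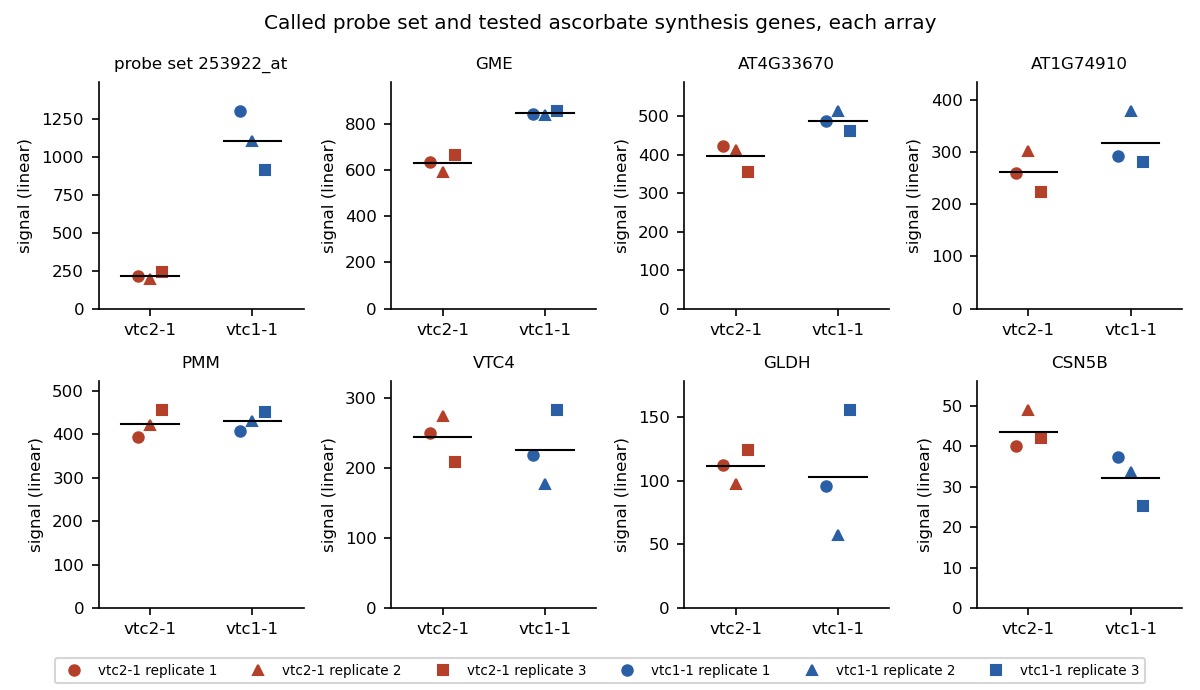
Linear signal of the unnamed probe set and of the 7 tested ascorbate synthesis genes in each array, with vtc2-1 left and vtc1-1 right in each panel. Points are arrays, marker shapes are replicate numbers and bars are group means. The arrays of the unnamed probe set, GME, AT4G33670 and CSN5B do not overlap between the lines. Over all tested probe sets this held for 5.72% that were higher and 4.61% that were lower in vtc2-1.

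At an adjusted p under 0.05 limma thus called 1 of the 13926 (0.00718%), and the next smallest adjusted p was 0.423. At an unadjusted p under 0.05 stood 698 probe sets (5.01%), 399 higher (2.87%) and 299 lower (2.15%) in vtc2-1, where 696 would be expected if no transcript differed. The median log2 difference over all tested probe sets was 0.00, and 50.8% lay above 0. The arrays of both lines did not overlap at 797 probe sets that were higher in vtc2-1 (5.72%) and 642 that were lower (4.61%). The 95% confidence interval of the difference lay within 2-fold in either direction for 11554 probe sets (83.0%). The median standard error was 0.21.

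**Figure D2:**
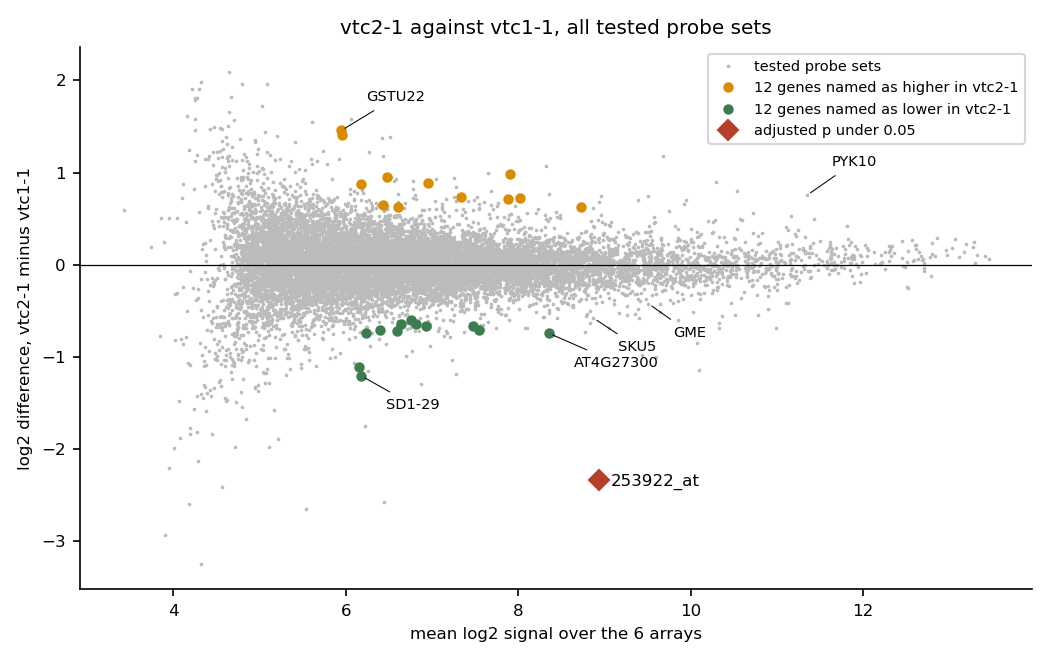
Log2 difference (vtc2-1 minus vtc1-1) against mean log2 signal over the 6 arrays for the 13926 tested probe sets, in grey. The diamond is the unnamed probe set, the only probe set with an adjusted p under 0.05, at -2.33; coloured points are the 12 named genes of each direction, none of which passed.

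The genes of ascorbate synthesis lay on both sides of 0, and none was called. Of 20 loci listed, 9 had a paired probe set and 7 were tested. Their log2 differences ran from -0.42 to 0.46 with a median of -0.02, against 0.00 for all tested probe sets. At an unadjusted p under 0.05, none was higher and 1 lower in vtc2-1, against 2.87% and 2.15% of all tested probe sets. The arrays did not overlap at 1 that was higher and 2 that were lower, against 5.72% and 4.61%.

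GME, the epimerase that lies between both mutated steps, had signals of 635.9, 591.3 and 665.2 in vtc2-1, against 839.4, 839.0 and 853.6 in vtc1-1. No vtc2-1 array reached the lowest vtc1-1 array. The log2 difference was -0.42 ± 0.13 (SE, n = 3 each; limma unadjusted p = 0.00592, adjusted p = 0.955) and -0.46 without vtc2-1 replicate 3. AT4G33670, the L-galactose dehydrogenase further along the route, had signals of 422.7, 412.5 and 356.0 in vtc2-1 and 487.3, 512.9 and 462.1 in vtc1-1. The arrays did not overlap, and the difference was -0.30 ± 0.14. AT1G74910, a protein related to VTC1 that stimulates GDP-mannose pyrophosphorylase, had signals of 260.7, 301.8 and 224.2 in vtc2-1 and 291.5, 378.4 and 280.1 in vtc1-1. These ranges overlapped.

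PMM, the phosphomannomutase upstream of VTC1, was level, at 395.2, 421.3 and 455.6 in vtc2-1 and 409.1, 430.6 and 451.6 in vtc1-1. Its interval ran from -0.32 to 0.28 on the log2 scale. VTC4, the L-galactose-1-phosphate phosphatase, stood at 0.13 (-0.29 to 0.55), and GLDH, the mitochondrial enzyme of the last step, at 0.22 (-0.42 to 0.87). CSN5B, a signalosome subunit that promotes the breakdown of VTC1 protein, was dim, with 40, 48.9 and 42.1 in vtc2-1 and 37.3, 33.6 and 25.3 in vtc1-1. Its arrays did not overlap, at a log2 difference of 0.46 ± 0.30.

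Ascorbate is oxidised by ascorbate peroxidases and oxidases and is regenerated with glutathione. In this cycle 7 of 24 listed loci were tested. Their log2 differences ran from -0.12 to 0.28 with a median of 0.15, and none had an unadjusted p under 0.05. The highest was AT5G21100, an ascorbate oxidase of the cell wall space, with 124.9, 131.1 and 77.6 in vtc2-1 and 99.4, 89.9 and 79.5 in vtc1-1. Replicate 3 of vtc2-1 was the lowest of the 6 arrays, and without it the difference was 0.52. The plastid glutathione reductase GR stood at 0.17 ± 0.14 and the stromal ascorbate peroxidase SAPX at 0.25 ± 0.25. For the thylakoid peroxidase TAPX the interval was -0.39 to 0.34.

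Genes of GDP-mannose use outside the ascorbate route and of glycosylation could hardly be measured: 2 of 23 listed loci were tested. SETH2, which builds the membrane anchor of glycosylphosphatidylinositol-linked proteins, had 43.2, 50.6 and 44.8 in vtc2-1, against 70.7, 54.7 and 59.2 in vtc1-1. The arrays did not overlap (log2 difference -0.41 ± 0.22, limma unadjusted p = 0.0853). GER2, a GDP-fucose synthase, stood at -0.25 ± 0.20 with overlapping arrays.

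Single genes of cell wall growth lay apart in both directions. SKU5, a membrane-anchored wall protein of directional root growth, had signals of 410.8, 358.9 and 382.8 in vtc2-1, against 554.8, 566.7 and 596.4 in vtc1-1. The gap between the lines was wider than the range within either. The log2 difference was -0.58 ± 0.13 (SE, n = 3 each; limma unadjusted p = 0.00108, adjusted p = 0.914), the same -0.58 without vtc2-1 replicate 3.

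Of 29 listed wall loci 9 were tested, 2 higher and 2 lower in vtc2-1 at an unadjusted p under 0.05 (2.87% and 2.15% of all tested), with a median of 0.00. Without vtc2-1 replicate 3 the counts were 2 and 1 (3.48% and 3.43%) and the median 0.18. EXLA1, an expansin-like protein, had 113.3, 147.2 and 88.3 in vtc2-1 and 160.5, 208.4 and 153.1 in vtc1-1, a difference of -0.60 ± 0.21. The expansins proper, which loosen the wall, included 2 on the other side. EXPA4 had 277.2, 283.3 and 337.2 in vtc2-1 and 185.2, 212.4 and 248.2 in vtc1-1 (0.48 ± 0.16). EXPA8 stood at 0.50 ± 0.18, and EXGT-A3, a xyloglucan endotransglucosylase that rejoins wall chains, at -0.39 ± 0.15. In all 4 genes the arrays of the lines did not overlap. Over the 12 tested expansins and expansin-like genes the median was 0.15, and 0.28 without vtc2-1 replicate 3.

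The largest differences among bright, separated genes were taken in each direction. None of these 24 passed the adjusted threshold, and the requirement that the arrays do not overlap is part of their choice. On the higher side, GSTU22, a tau class glutathione transferase, had 127.0, 142.6 and 59.2 in vtc2-1, against 29.8, 37.2 and 46.6 in vtc1-1. Replicate 3 of vtc2-1 lay just above the highest vtc1-1 array and the other 2 far above it. The log2 difference was 1.46 ± 0.32 (limma unadjusted p = 0.0007). UGT72E2, a glucosyltransferase of monolignols, the building blocks of lignin, had 169.3, 215.4 and 129.8 in vtc2-1 and 77.8, 95 and 102.3 in vtc1-1 (0.88 ± 0.21). AT1G06640, an oxygenase of the 2-oxoglutarate and iron type, had 674.9, 574.5 and 373.6 in vtc2-1 and 348.4, 326.6 and 346.5 in vtc1-1 (0.63 ± 0.20).

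AT4G22510, which has no role given here, had the smallest unadjusted p of the 24 named genes. Its signal was 83.6, 115.7 and 108.6 in vtc2-1, against 29.8, 41.0 and 45.8 in vtc1-1, a difference of 1.41 ± 0.23 (limma unadjusted p = 6.08e-05, adjusted p = 0.423). Replicate 3 was in the middle of the vtc2-1 arrays here. AT1G17860, a protease inhibitor of the Kunitz type, had 359.0, 359.4 and 297.3 in vtc2-1 and 131.9, 161.0 and 235.3 in vtc1-1 (0.98 ± 0.21).

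The other genes on the higher side differed by 0.62 to 0.96. They were AT3G50350, the acid phosphatase-like AT4G29270, the berberine bridge enzyme-like oxidase AT5G44380, the class III peroxidase AT3G21770, AT3G45160, AT1G09740 of the universal stress protein family, and the chitinase AT2G43590. AT3G21770 had 327.4, 395.5 and 285.0 in vtc2-1 and 154.4, 212.6 and 251.9 in vtc1-1. For AT2G43590 the signals were 127.7, 109.3 and 126.4 in vtc2-1 and 82.4, 62.1 and 94.7 in vtc1-1.

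On the lower side, SD1-29, a lectin receptor kinase that senses bacterial fatty acid metabolites, had 48.9, 31.4 and 70.9 in vtc2-1, against 114.5, 100.1 and 116.7 in vtc1-1. Every vtc2-1 array lay below every vtc1-1 array (-1.21 ± 0.27, limma unadjusted p = 0.000769). AT4G27300, another kinase of the S-locus lectin type, had 256.2, 226.2 and 280.3 in vtc2-1 and 369.6, 438.1 and 471.7 in vtc1-1 (-0.74 ± 0.16, and -0.82 without vtc2-1 replicate 3).

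AT3G44630, an immune receptor of the TIR-NBS-LRR type, had 83.3, 89.3 and 91.8 in vtc2-1 and 143.6, 141.1 and 116.3 in vtc1-1 (-0.60 ± 0.17). The vtc2-1 arrays were close together here. The kinase AT1G76360, of the receptor-like cytoplasmic type, stood at -0.65 ± 0.20.

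The remaining 8 were lower by 0.65 to 1.11 on the log2 scale. AT5G26270 had 61.9, 48.7 and 37.6 in vtc2-1 and 98.9, 101.5 and 112.6 in vtc1-1 (-1.11 ± 0.21). The MYB-type factor MYBC1 had 64.8, 69.4 and 43.9 in vtc2-1 and 94.9, 122.0 and 80.0 in vtc1-1 (-0.74 ± 0.23). In both, replicate 3 was the lowest of the vtc2-1 arrays. AT3G04550, an assembly factor of the carbon-fixing enzyme Rubisco, had 155.7, 151.5 and 121.2 in vtc2-1 and 229.4, 190.7 and 258.4 in vtc1-1 (-0.66 ± 0.18). PDF1A, an organelle peptide deformylase, stood at -0.70 ± 0.19. The others were AT2G25730, AT1G19380, AT2G20280 and AT3G22104, a relative of the phototropism protein NPH3.

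**Figure D3:**
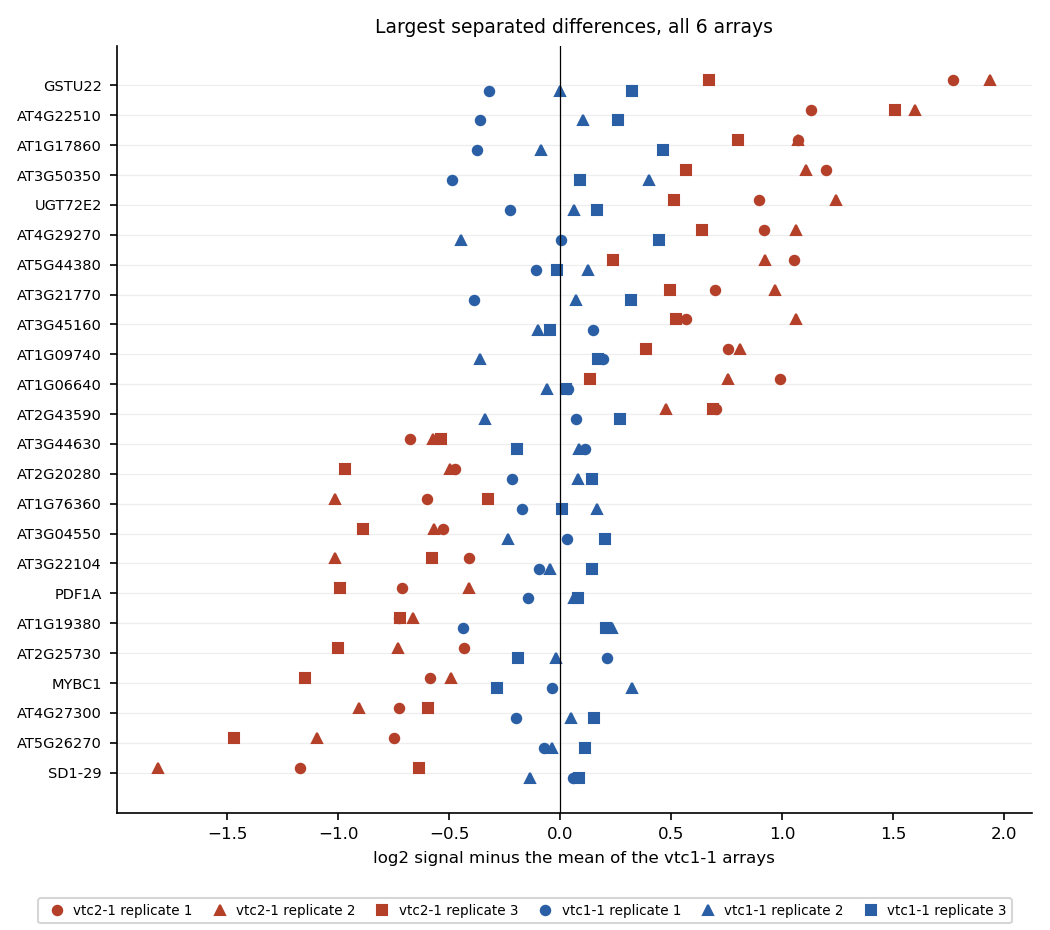
Signals of the 24 named genes in each array, on the log2 scale relative to the mean of the vtc1-1 arrays. Each row has vtc2-1 above and vtc1-1 below, marker shapes are replicate numbers, and genes were chosen so that the arrays of the lines do not overlap; vtc2-1 replicate 3 (square) lies closest to vtc1-1 in most rows on the higher side.

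How many genes separate the lines depended on vtc2-1 replicate 3. Without it limma called 48 probe sets (0.345%), 17 higher (0.122%) and 31 lower (0.223%) in vtc2-1, while leaving out any other single array kept the count at 1. Of the 48, 27 stood at an unadjusted p under 0.05 when all 6 arrays were used, and 1, the unnamed probe set, was called there as well. At 46 of the 48 (95.8%) the omitted array was closer to the mean of vtc1-1 than to that of the other vtc2-1 arrays, against 53.0% of all tested probe sets; choosing them without that array favours this position. The calls therefore describe vtc2-1 replicates 1 and 2 against vtc1-1. Of the 48, 21 name 1 gene, 9 higher and 12 lower.

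Endoplasmic reticulum bodies are beta-glucosidase stores of Brassicaceae seedlings and roots. PYK10, their main beta-glucosidase, was called as higher in these 2 arrays, the only called member of the glucosinolate and endoplasmic reticulum body list. It had 4238, 4406 and 2086 in vtc2-1, against 2031, 1726 and 2318 in vtc1-1. Replicates 1 and 2 were well above all vtc1-1 arrays and replicate 3 was among them. The difference was 0.75 ± 0.24 with all arrays (limma unadjusted p = 0.00964) and 1.1 without replicate 3 (limma adjusted p = 0.00792).

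Several jacalin-related lectins are known to join PYK10 in complexes, and 3 showed the same division of the vtc2-1 arrays. JAL33 had 1697, 1190 and 415.9 in vtc2-1, against 652.3, 590.8 and 457.4 in vtc1-1. JAL22 had 363.8, 288.5 and 123.8 in vtc2-1 and 131.7, 149.1 and 167.7 in vtc1-1. JAL34 had 1160, 1066 and 489.7 in vtc2-1 and 615.1, 585.3 and 701.2 in vtc1-1. In each, replicate 3 was below every vtc1-1 array. Their differences were 0.75, 0.66 and 0.42 with all arrays, and 1.34, 1.12 and 0.82 without replicate 3 (limma adjusted p = 0.00944, 0.0241 and 0.039).

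Over the family, 9 of 42 listed jacalin-related lectins were tested, with a median of 0.42, and 0.57 without replicate 3. At an unadjusted p under 0.05, none was higher and 1 lower with all arrays, and 3 higher and none lower without replicate 3. Over all tested probe sets the shares were 2.87% higher and 2.15% lower with all arrays, and 3.48% and 3.43% without replicate 3. The lower one, AT1G52100, had 92.9, 60.3 and 41.0 in vtc2-1 and 99.9, 97.0 and 110.2 in vtc1-1. The family thus did not lie on 1 side.

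Of the glucosinolate and endoplasmic reticulum body list, 5 of 32 loci were tested. Their median was 0.34, and 0.45 without replicate 3, and 2 were higher at an unadjusted p under 0.05 (4 without replicate 3), against 2.87% of all tested probe sets (3.48% without replicate 3). NAI1, the transcription factor needed to form the bodies, had 75, 72.3 and 50.1 in vtc2-1 and 42.9, 42.4 and 54.6 in vtc1-1 (0.48 ± 0.24). BCAT4, an aminotransferase that starts the synthesis of methionine-derived glucosinolates, had 556.3, 684.3 and 486.0 in vtc2-1 and 440.7, 446.9 and 465.4 in vtc1-1 (0.34 ± 0.15). For BCAT4 all 3 vtc2-1 arrays lay above vtc1-1.

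PYK10 is also a root marker, and roots were part of these whole seedlings. The summed signal of the 3 root markers of 13 that had a probe set, PYK10, EXPA7 and EXPA18, was 4301, 4486 and 2161 in vtc2-1 and 2100, 1787 and 2395 in vtc1-1 (exact two-sided permutation p = 0.2). Most of this sum is PYK10 itself. EXPA7 had 31.7, 30.1 and 39.6 in vtc2-1 and 45.9, 36.0 and 38.2 in vtc1-1 (-0.25 ± 0.30), and EXPA18 had 30.8, 50.4 and 35.8 in vtc2-1 and 22.8, 25.6 and 39.2 in vtc1-1 (0.43 ± 0.37). Both overlapped between the lines. The share of root tissue in each sample was not tested, and in whole seedlings fewer cells of a type and less RNA per cell cannot be told apart. None of the listed flower, seed or senescing leaf markers had a paired probe set. Of 13 green shoot markers the 1 paired, RCA, was at 6752, 7731 and 7139 in vtc2-1 and 7053, 6295 and 7084 in vtc1-1.

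GSTU22, UGT72E2, AT5G44380 and AT1G06640 were called as higher in the same fit, at 1.85, 1.07, 0.99 and 0.87. So was AT4G15390, an acyltransferase of the BAHD type, with 342.8, 434.5 and 190.2 in vtc2-1 and 187.2, 174.2 and 193.8 in vtc1-1 (1.06, limma adjusted p = 0.0212).

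The lower genes without replicate 3 included a chitinase, lipid-transfer type proteins, a lectin and a peroxidase, kinds of protein often induced in defence. At 7 of the 9 named here replicate 3 was the highest of the 6 arrays. AT2G43620, a chitinase, had 17.8, 8.5 and 297.7 in vtc2-1, against 204.5, 189.8 and 245.3 in vtc1-1. Replicates 1 and 2 lay under the 40th percentile of their arrays, which makes the size of the fall, -4.11 without replicate 3 (limma adjusted p = 5.49e-05), uncertain. With all arrays the difference was -2.57 ± 0.94 (limma unadjusted p = 0.0183).

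Of 9 listed loci of a lipid-transfer type cluster of neighbouring genes on chromosome 4, 2 were tested. Both were called as lower without replicate 3, against 0.223% of all tested probe sets. This cluster was added as a family after values had been seen, so the count is no separate evidence. AT4G12490 had 272.1, 280.3 and 1573 in vtc2-1, against 874.2, 1160 and 909.9 in vtc1-1 (-1.82 without replicate 3, limma adjusted p = 0.000373). AT4G12500 had 182.1, 155.1 and 623.7 in vtc2-1 and 426.4, 465.2 and 433.7 in vtc1-1 (-1.39, limma adjusted p = 0.00271). In each, replicate 3 was above all vtc1-1 arrays while replicates 1 and 2 were below them. With all arrays the differences were -0.98 ± 0.51 and -0.76 ± 0.40 (limma unadjusted p = 0.0811 and 0.0799).

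AT5G55450, another lipid-transfer type protein, had 47.9, 85.1 and 346.8 in vtc2-1 and 190.6, 181.8 and 189.6 in vtc1-1. AT1G65500 had 63.6, 49.4 and 346.8 in vtc2-1 and 203.3, 226.8 and 281.0 in vtc1-1. The peroxidase AT5G64120 had 256.4, 231.5 and 859.6 in vtc2-1 and 411.2, 529.2 and 711.7 in vtc1-1. These 3 showed the same division, with differences of -1.55, -2.07 and -1.14 without replicate 3 and -0.74, -1.19 and -0.53 with it. AT2G39210, a membrane transporter-like protein, stood at -1.11 without replicate 3 and at -0.60 with it.

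In 2 genes replicate 3 did not exceed vtc1-1. AT3G16530, a legume-type lectin, had 398.8, 460.9 and 888.6 in vtc2-1, against 1073, 883.4 and 1393 in vtc1-1. Only replicate 3 reached the lowest vtc1-1 array, and the difference was -1.01 ± 0.27 with all arrays (limma unadjusted p = 0.00286) and -1.36 without replicate 3. SD1-29, described above, stood at -1.49 without replicate 3 (limma adjusted p = 0.0205) and had the arrays of both lines apart in either case.

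**Figure D4:**
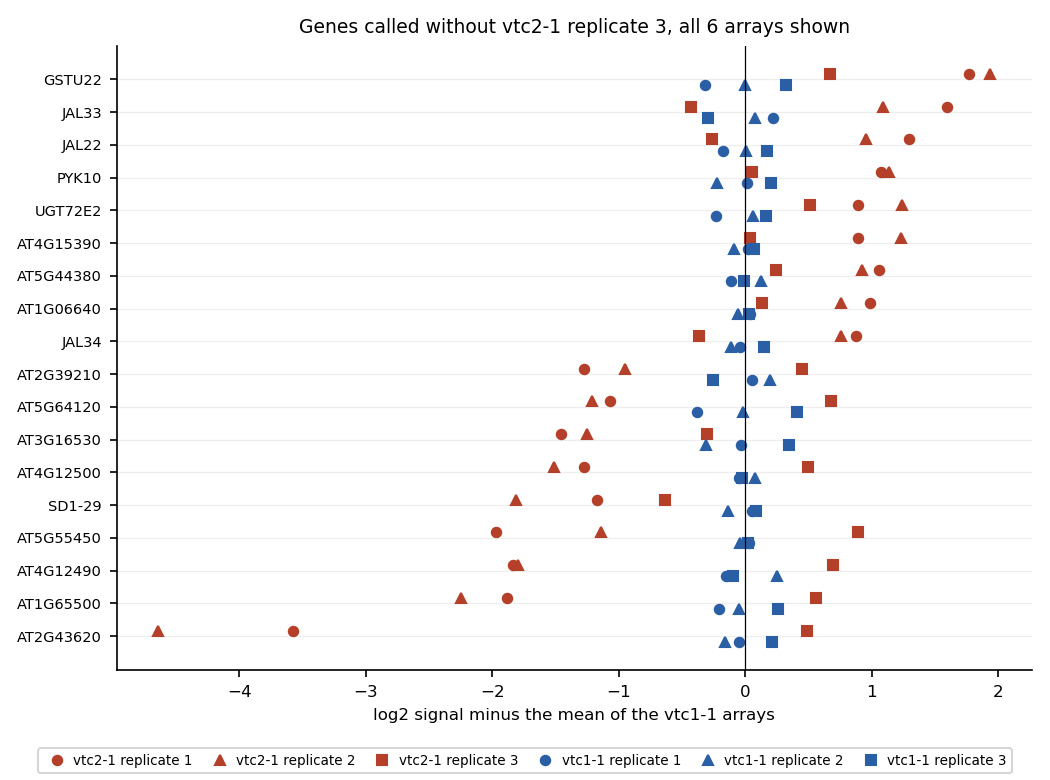
Signals in all 6 arrays of the 18 genes that the naming rule took without vtc2-1 replicate 3, on the log2 scale relative to the mean of the vtc1-1 arrays. Each row has vtc2-1 above and vtc1-1 below; vtc2-1 replicates 1 (circle) and 2 (triangle) lie to one side of vtc1-1 and replicate 3 (square) among or beyond the vtc1-1 arrays in most rows.

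Class III peroxidases are secreted enzymes that act on wall phenolics. Of 73 listed genes 32 were tested, with a median log2 difference of 0.25 and 21 above 0. At an unadjusted p under 0.05, 3 were higher and none lower, against 2.87% and 2.15% of all tested probe sets. Without vtc2-1 replicate 3 the median was 0.35, and the counts were 9 higher, against 3.48% of all tested probe sets, and 2 lower, against 3.43%. AT5G17820 had 146.1, 177.7 and 85.5 in vtc2-1 and 47.2, 32.0 and 126.6 in vtc1-1, where vtc1-1 replicate 3 overlapped vtc2-1 (1.18 ± 0.43). AT4G33420 had 124.9, 100.3 and 95.4 in vtc2-1 and 71.7, 87.5 and 57.1 in vtc1-1, with no overlap (0.58 ± 0.20).

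Berberine bridge enzyme-like proteins, oxidases of wall sugars and alcohols, had 8 of 27 listed genes tested and a median of 0.24. Of these, 7 were above 0, against 50.8% of all tested probe sets. At an unadjusted p under 0.05, 1 was higher and none lower, against 2.87% and 2.15%. That gene was AT5G44380, already among the named genes above, with 260.5, 238.0 and 148.1 in vtc2-1 and 116.2, 136.8 and 124.4 in vtc1-1 (0.74 ± 0.21).

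Among 6 tested chitinases, 2 were higher and 1 lower at an unadjusted p under 0.05, against 2.87% and 2.15% of all tested probe sets, with a median of 0.12. Without vtc2-1 replicate 3 the counts were 2 and 2 (3.48% and 3.43%) and the median -0.14. This family was chosen after values had been seen. ChiC had 184.3, 207.2 and 200.3 in vtc2-1 and 114.2, 155.5 and 139.1 in vtc1-1 (0.54 ± 0.17). ChiC and AT2G43590 were thus on the higher side in all vtc2-1 arrays, and AT2G43620 on the lower side in replicates 1 and 2 only. CHI, named here after its values were seen, was also called as lower without replicate 3. Its signal was 5.9, 1.9 and 468.9 in vtc2-1, against 108.8, 60.1 and 49.4 in vtc1-1. Replicates 1 and 2 lay under the 40th percentile and replicate 3 above every vtc1-1 array, so the size of the fall, -4.35 without replicate 3 (limma adjusted p = 0.0271), is uncertain. With all arrays the difference was -1.98 ± 1.47.

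The UDP-glycosyltransferases, which attach sugars to small molecules, lay on both sides. Of 26 tested, 4 were higher and 3 lower at an unadjusted p under 0.05, against 2.87% and 2.15% of all tested probe sets, and the median was -0.04. Without vtc2-1 replicate 3 the counts were 2 and 2 (3.48% and 3.43%) and the median 0.11. UGT76C2, which glucosylates cytokinins, had 82.6, 84.3 and 83.4 in vtc2-1 and 57.5, 50.6 and 53.2 in vtc1-1. Its arrays were close within each line and far apart between them (0.64 ± 0.18). UGT85A5 stood at -0.75 ± 0.29. Among 6 tau and phi glutathione transferases the median was 0.14, and besides GSTU22 only GSTU20 had an unadjusted p under 0.05, at 0.54 ± 0.21 with overlapping arrays (0.49 and limma unadjusted p = 0.0502 without vtc2-1 replicate 3).

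Jasmonate and ethylene defence genes were too few to describe as a class, with 3 of 25 listed loci tested. AT5G05600, an oxygenase that inactivates jasmonate, had 58.3, 53.1 and 66.8 in vtc2-1, against 29.8, 23.7 and 8.1 in vtc1-1. The arrays did not overlap (1.72 ± 0.47, limma unadjusted p = 0.00339), but 2 vtc1-1 signals were below the 40th percentile, so the size is uncertain. The defensin PDF1.2b had 46.0, 104.0 and 83.9 in vtc2-1 and 83.8, 97.0 and 386.2 in vtc1-1, where replicate 3 of vtc1-1 alone was high. The gene is uncertain, because this type of probe set also reads near-identical defensins. PDF1.2 had 6.4, 38.9 and 39.7 in vtc2-1 and 40.3, 38.2 and 92.6 in vtc1-1 (-1.28 ± 0.65). Its arrays overlapped, and 1 vtc2-1 signal was below the 40th percentile, so the size is uncertain.

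Transcripts encoded in the plastid leaned to the higher side. Of 69 tested, 51 were above 0, the median was 0.15, and 6 were higher and none lower at an unadjusted p under 0.05. Over all tested probe sets 50.8% were above 0, 2.87% higher and 2.15% lower. Without vtc2-1 replicate 3 the median was 0.25, 63 were above 0 (52.3% of all tested), and 13 were higher at an unadjusted p under 0.05 (3.48% of all tested). These transcripts share a small genome, and many share a primary transcript, so they are not independent of each other. The median deviation of the class in each array from the 6-array mean was 0.28, 0.08 and -0.20 in vtc2-1 and 0.05, -0.35 and 0.09 in vtc1-1, on the log2 scale. These values overlapped between the lines, with the lowest in vtc1-1 replicate 2.

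The subunit psaJ of photosystem I had 3014, 3291 and 3551 in vtc2-1, against 2114, 2053 and 2881 in vtc1-1 (0.50 ± 0.15, limma unadjusted p = 0.00542). The ribosomal protein gene rpl32 stood at 0.49 ± 0.15 and psbK of photosystem II at 0.42 ± 0.15, both with overlapping arrays. The 5 tested nuclear photosynthesis genes of 34 listed stood at 0.06 to 0.22, and 9 mitochondrion-encoded transcripts had a median of 0.05.

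**Figure D5:**
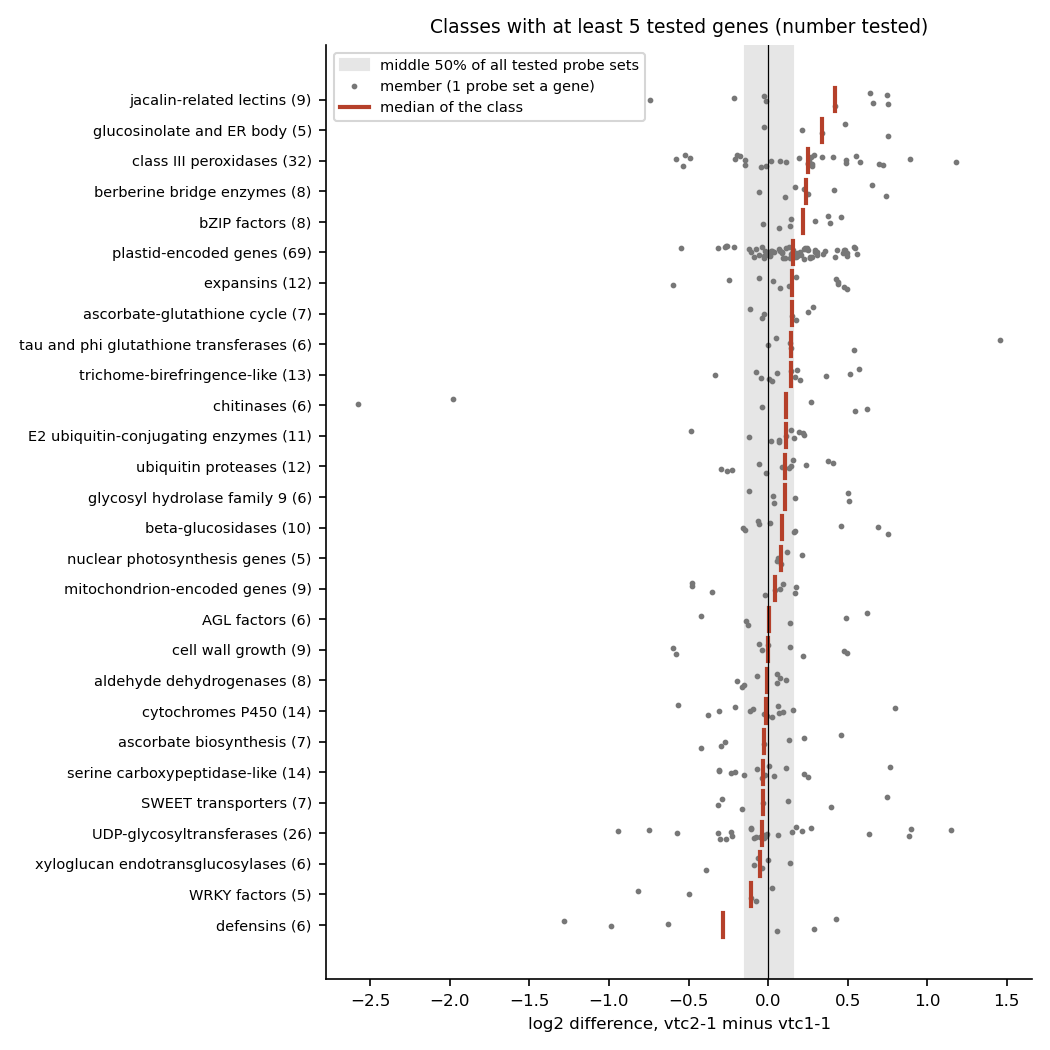
Log2 differences (vtc2-1 minus vtc1-1) of the tested genes in each class or list with at least 5, all 6 arrays; grey points are genes, red bars are class medians and the grey band holds the middle 50% of all tested probe sets. The medians run from -0.28 for defensins to 0.42 for jacalin-related lectins.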

How the data were processed

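RNA was labelled with biotin by the one-cycle method, per the labels' protocols. The authors deposited a linear signal intensity for each probe set on each array; the submitters' processing notes name GCOS and MAS5, with versions not given in the sources used here. The 2% trimmed mean was 100.01 on every array, so the intensities had been scaled alike and were used as deposited. A difference in total RNA per seedling is lost by such scaling, and dim signals vary more on the log2 scale. Precision is limited by the 3 arrays of each line.

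Signals were log2 transformed with no pseudocount. The 64 control probe sets were left out. Group means of the 6 arrays were compared with limma 3.58.1 in R 4.3.3 (eBayes with an intensity trend, two-sided), with Benjamini-Hochberg adjustment over the 13926 tested probe sets and 0.05 as the threshold. The ± values of log2 differences are standard errors. The fit was tested on simulated data. Figures were drawn with matplotlib 3.10.9.

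Gene names came from the platform's annotation and the TAIR10.1 gene table: 13513 of 22810 have 1 gene, 503 several and 8794 are not listed there. Of those with 1 gene, 13436 matched the table by locus. Gene lists and families held 588 distinct loci, of which 190 have a paired probe set; other classes were collected by gene symbol. A class uses 1 probe set a gene.

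Named were probe sets past the threshold; in each direction the 12 largest differences among probe sets with 1 gene, no overlap between the arrays, a higher group above the median signal and an unadjusted p under 0.01; and up to 3 members of each class with the smallest p. Once values had been seen, this rule was also applied without vtc2-1 replicate 3 at an adjusted p under 0.05, all tested ascorbate genes, CHI and STZ were added, and the chitinases and the lipid-transfer cluster were added as families. The members, lists and rules were chosen with earlier results of these data known. Labels were not used to pair replicates, since same-numbered arrays deviated together at r = 0.00 to 0.05. This does not settle whether same-numbered samples shared a sowing.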

Additional observations from a re-analysis of the deposited data

How the results depend on the processing

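The unnamed probe set kept its direction and stayed past the threshold in all 15 alternatives: all 9 arrays in one model, median-centred or quantile-normalized arrays, log2(signal + 16), no filter or a filter at the 60th percentile, no intensity trend, array weights, a replicate block, and each array left out in turn. Its log2 difference ran from -2.46 to -2.21 with single arrays left out, and its largest limma adjusted p was 0.0378, with no intensity trend. The number of calls was 1 in every alternative except without vtc2-1 replicate 3, so that leaving out single arrays gave 1 to 48. The number at an unadjusted p under 0.05 was 698, between 520 and 961 with single arrays left out, 504 with all 9 arrays and 955 with array weights. It reached 1141 with no filter, where all 22746 probe sets were tested. With the replicate block limma called 1 probe set, and 769 had an unadjusted p under 0.05. Deviations from the group means correlated at 0.03, 0.00 and 0.05 between same-numbered arrays. Such values cannot settle whether the numbers pair the samples, which the labels do not say. The 43 class medians moved by more than the spread between replicates in 34 of 641 recalculations. Of the 80 probe sets whose values are given here, 6 with intervals that span 0 changed sign: with single arrays left out PMM ran from -0.076 to 0.0267, VTC4 from -0.0328 to 0.30, GLDH from -0.14 to 0.58, TAPX from -0.19 to 0.0765 and STZ from -0.72 to 0.26, TAPX stood at 0.0273 with array weights, and RCA at -0.0246 after quantile normalization. The others kept their direction where they were tested, and 19 passed the threshold, each only without vtc2-1 replicate 3. Signals near background limit the dim genes, and 3 arrays a line leave a median 95% interval of 0.45 on either side of a log2 difference.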

Other observations

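Of the list of abscisate, cold and drought genes 4 of 22 loci were tested, and of the oxidative stress markers 1 of 14. AT2G21640, a marker of oxidative stress, had 43.4, 49.0 and 40 in vtc2-1 and 26.4, 22.7 and 26.2 in vtc1-1, all 3 vtc1-1 signals below the 40th percentile (0.81 ± 0.32, limma unadjusted p = 0.0262). COR15A, a chloroplast protein of cold acclimation, had 49.1, 45.1 and 41.3 in vtc2-1 and 22.1, 5.0 and 31.6 in vtc1-1, of which 2 were below that percentile (1.57 ± 0.63, limma unadjusted p = 0.0296). The other cold and drought genes overlapped between the lines. COR47 was bright, at 681.2, 887.2 and 490.4 in vtc2-1 and 563.5, 633.6 and 534.5 in vtc1-1 (0.21 ± 0.20), COR15B stood at 0.30 ± 0.25, and STZ, a zinc finger factor, at -0.39 ± 0.43. The 4 tested reference genes stood at -0.11 to 0.09.

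The 5 tested WRKY factors, regulators of defence genes, had a median of -0.11, with 1 above 0 and 4 below (50.8% of all tested were above 0). Without vtc2-1 replicate 3 the median was -0.40 and all 5 were below 0 (52.3% of all tested were above 0). These ran from -1.25 for WRKY53 to -0.002 for WRKY20, and WRKY53 had 1 vtc2-1 signal, 17.7, below the 40th percentile. By array, the median deviation of the 5 factors on the log2 scale was -0.28, -0.03 and 0.21 in vtc2-1 and -0.01, 0.21 and 0.11 in vtc1-1.

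By gene order in the TAIR10.1 table, looked up after the values were seen, AT4G27300 lies 43 protein-coding genes from the VTC2 locus on chromosome 4, and MYBC1 140 from the VTC1 locus on chromosome 2. Whether these distances bear on their signals was not tested. No other gene was looked up. By locus number, EXPA4, EXPA8, JAL22, RCA and AT2G39210, all described above, lie nearer the VTC1 locus than MYBC1 does. Nearer the VTC2 locus than AT4G27300, also by locus number, lie WRKY20 (-0.08 ± 0.16 with all arrays) and WES1 of the auxin response list (0.27 ± 0.22).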
